A study of Mus musculus with 26 samples.

Results

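The loss of Foxp3 and the loss of BATF inside regulatory T cells (Treg) were compared gene by gene, as the log2 change in Foxp3KO Treg minus the log2 change in BATFcKO Treg. The comparison used 8 of the 26 libraries of the series, in 4 groups of 2, and 12227 genes. All were poly(A) RNA-seq libraries of sorted CD4+ T cells, taken without culture from C57BL6/J mice (spleen and lymph nodes). Foxp3KO Treg were CD4+hCD2+GFP- cells of Foxp3fs101-IRES-hCD2/Foxp3-IRES-GFP mice, so that the human CD2 reporter marked cells using the mutated allele. Their control Treg passed the same gate and came from Foxp3WT-IRES-hCD2/Foxp3-IRES-GFP mice. BATFcKO Treg were CD4+YFP+hCD2- cells whose genotype joined Foxp3-IRES-YFPCre/Foxp3-IRES-hCD2 with Batfflox/flox. Their control Treg had the same Foxp3 alleles, Cre included, and passed the same YFP gate. The Foxp3 locus drove the Cre, so Batf was deleted only in cells that had turned on Foxp3. The labels do not name the floxed exon. Every animal also carried a second Foxp3 allele, whose Treg were present in the same animal but outside the sorting gate. The labels give no age and leave it unsaid if replicate libraries came from separate animals, so the p-values measure the spread between these samples, which may be technical.

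Foxp3 is the X-linked forkhead transcription factor that defines the Treg lineage and holds much of its expression programme in place. BATF is an AP-1 family bZIP factor that binds DNA with JUN partners and with IRF4, and it is known for driving resting, central Treg (cTreg) into effector Treg (eTreg) that enter tissues. Surface receptors for homing, such as CCR4, CCR8 and the integrins, belong to the eTreg programme, whereas CD25, GITR and GARP mark Treg in general.

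The Foxp3KO libraries and their controls held 26321000 to 34614000 counts each, and the 4 YFP libraries 5790200 to 6813100. Replicates correlated at a Pearson r of 0.985 to 0.996 over log CPM (read counts relative to the TMM-scaled library total), and within a group they differed by 5.17 to 7.85 times the counting noise (chi-square per degree of freedom). Cd3e and Cd4 were high in all 8 libraries. Of the markers of other cells, Ms4a1 and Pax5 were at or below 0.482 CPM, and Hbb-bs and Hba-a1 at 0. The summed B cell markers were lower in Foxp3KO (54.7 to 60.6 CPM) than in control Treg (92.3 to 102 CPM), and Cd79b and Cd22 were the members called lower. Among the YFP libraries that sum was 62.4 to 72.5 CPM in BATFcKO and 79.1 to 81.1 CPM in control Treg. Myeloid (65.9 to 81.8 CPM over all 8 libraries) and CD8 or NK marker sums overlapped between each mutant and its control. Their part in the results was not tested, apart from the B cell markers that are named as members below.

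The targeted genes were read first. Foxp3 (ENSMUSG00000039521.13, chrX:7573644-7595245, plus strand, mm10) stood at 348 and 326 CPM in control Treg and at 109 and 113 CPM in Foxp3KO Treg. Among the YFP libraries it stood at 809 and 735 CPM in control and at 744 and 785 CPM in BATFcKO Treg. Foxp3 RNA therefore fell in both Foxp3KO libraries, with a log2 change of -1.60 ± 0.15 (SE, edgeR adjusted p = 2e-06). It did not pass the test in BATFcKO (log2 change -0.02 ± 0.15, edgeR adjusted p = 0.99), and the changes differed by -1.59 ± 0.21 (edgeR adjusted p = 0.00045). Reads over the mutated Foxp3 allele are still counted, so this level says nothing about Foxp3 protein. Batf (ENSMUSG00000034266.6, chr12:85686669-85709087, plus strand, mm10) was at 67.8 and 58.5 CPM in YFP control and 19.5 and 15.9 CPM in BATFcKO Treg. That fall was called (log2 change -1.84 ± 0.30, edgeR adjusted p = 0.0019), although without BATFcKO replicate 2 its edgeR adjusted p was 0.063. In the Foxp3 set Batf was at 72.3 and 85.7 CPM in control and 55.9 and 48.6 CPM in Foxp3KO Treg. Both Foxp3KO libraries lay below both controls, but the change of -0.60 ± 0.25 did not pass (edgeR adjusted p = 0.19). Batf levels could thus not be shown to differ between the losses (difference 1.24 ± 0.39, 95% interval 0.42 to 2.07, edgeR adjusted p = 0.19).

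Foxp3 loss moved more genes than BATF loss. At an edgeR adjusted p below 0.05, 781 of the 12227 tested genes (6.39%) were lower and 320 (2.62%) higher in Foxp3KO Treg. In BATFcKO Treg 210 (1.72%) were lower and 39 (0.319%) higher. The Foxp3 set was sequenced more deeply. With its 4 libraries thinned to the depth of the YFP libraries, 633 genes were called in Foxp3KO against 1101 at full depth, and 250 against 249 in BATFcKO. Each mutant was compared with the controls of its own set, because the sets differ in reporter alleles and depth. A call in Foxp3KO without one in BATFcKO is not by itself a difference, and only genes whose difference was tested and called are treated as differing. That test called 139 genes (1.14%), 66 with the more negative change in Foxp3KO and 73 with the more negative change in BATFcKO. Leaving out 1 library at a time gave 413 to 1071 calls in Foxp3KO, fewest without Foxp3KO replicate 2. It gave 70 to 228 calls in BATFcKO and 59 to 94 for the difference, fewest without BATFcKO replicate 2. A fit of the 8 libraries alone, with its own estimate of spread, called 2326, 503 and 390. The median SE was 0.18 in Foxp3KO, 0.20 in BATFcKO and 0.27 for the difference. Across all 12227 genes the log2 changes of the losses had a Pearson r of 0.39 and a Spearman rho of 0.31, and across the 1180 genes called in either they had 0.42 and 0.54. These values are across genes, which are not independent replicates.

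**Figure D1:**
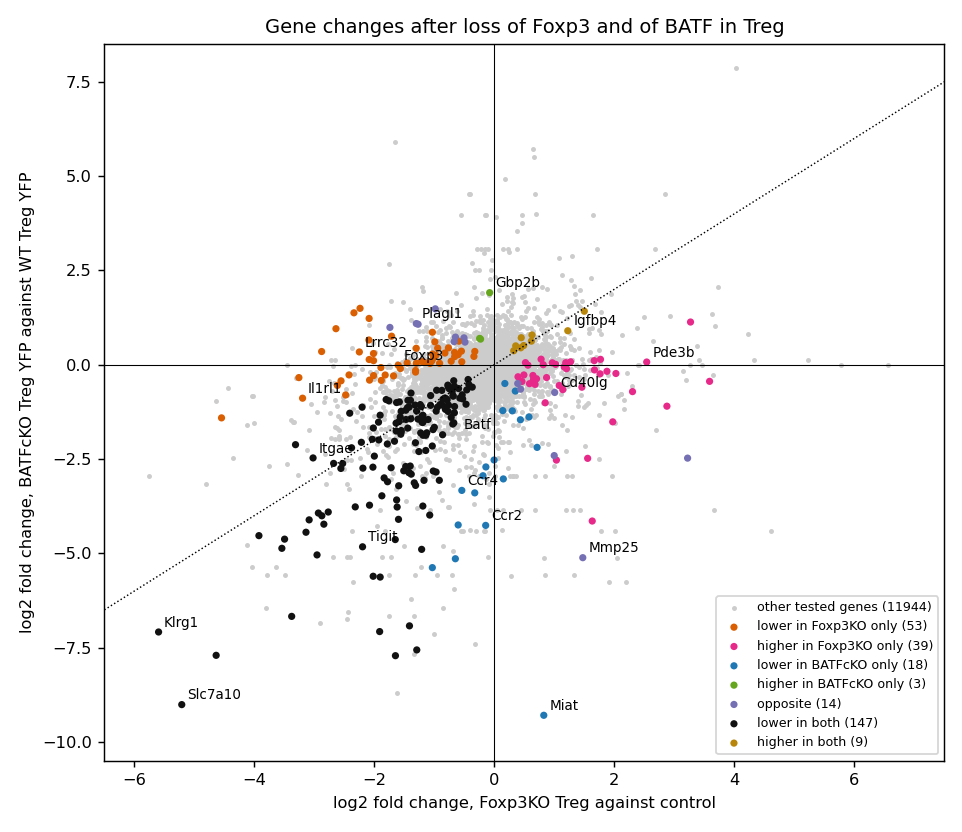
Log2 change in Foxp3KO Treg (horizontal axis) against log2 change in BATFcKO Treg (vertical axis), 1 point per tested gene, coloured by class, with a line where both changes are equal. The 147 genes lost in both fill the lower left, and Foxp3, Lrrc32, Ccr4 and Pde3b lie away from the line.

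Most of what BATF loss removed was also removed by Foxp3 loss. Of the 210 genes lower in BATFcKO, 147 (70.0%) were lower in Foxp3KO too, and these were 18.8% of the 781 genes lower in Foxp3KO and 1.2% of all tested genes. Nearly all shared losses were genes of eTreg. Of the 147, 145 (98.6%) were called with a 2-fold or larger excess in sorted wild-type eTreg over cTreg. Over all tested genes the share on this eTreg-high list was 11.8%. On it were also 72.9% of all 781 genes lower in Foxp3KO and 92.4% of all 210 lower in BATFcKO. The trait was thus not particular to the shared losses. That list comes from 4 libraries that are in neither contrast, although they entered the fit of all 26 libraries. They were sorted by CCR7, CD62L and, for cTreg, CD44, so genes of those proteins are no finding in it. By contrast, 22 of the 147 (15.0%) were on the list of genes high in Treg against conventional T cells of the same state, against 1.86% of all tested genes. In sorted bulk cells, fewer eTreg and less of these transcripts per cell cannot be told apart. Without BATFcKO replicate 2, 46 genes were lost in both, and all 46 were among the 147.

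The integrin chain Itgae (ENSMUSG00000005947.11, chr11:73090583-73147446, plus strand, mm10), which encodes CD103 and holds T cells at epithelia, was among the deepest losses of both. Its level was 126 and 122 CPM in control and 15.8 and 14.7 CPM in Foxp3KO Treg. In the YFP set it was 141 and 169 CPM in control and 24.98 and 30.9 CPM in BATFcKO Treg. All 4 mutant libraries lay far below all 4 controls. The log2 change was -3.02 ± 0.19 in Foxp3KO (edgeR adjusted p = 1.7e-08) and -2.47 ± 0.20 in BATFcKO (edgeR adjusted p = 5.5e-07), and the difference of -0.55 ± 0.26 was not called (edgeR adjusted p = 0.57). Its 95% interval, -1.10 to 0.00, still allows a loss about 1 log2 unit deeper in Foxp3KO.

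Klrg1, an inhibitory lectin-like receptor of terminally differentiated T cells, was nearly absent from both mutants. It was at 20.7 and 22.7 CPM in control and 0.624 and 0.256 CPM in Foxp3KO Treg. In the YFP set it was at 20.4 and 27.9 CPM in control and at 0.345 and 0 CPM in BATFcKO Treg. The BATFcKO libraries together held 2 Klrg1 reads against 318 in their controls, a ratio of 144 (95% exact interval 39.6 to 1196, counting error only). Both falls were called (edgeR adjusted p = 2e-06 in Foxp3KO and 7.7e-05 in BATFcKO).

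The other shared losses chosen by size covered several roles. Sema6d, a semaphorin, was at 10.6 and 8.50 CPM in control against 1.21 and 0.928 CPM in Foxp3KO Treg, and at 9.14 and 16.8 CPM in YFP control against 0.517 and 0.643 CPM in BATFcKO Treg. Pcyt1b, of phosphatidylcholine synthesis, had log2 changes of -2.77 ± 0.28 in Foxp3KO and -3.91 ± 0.52 in BATFcKO (edgeR adjusted p = 5.6e-06 and 0.00025). Alox8, a lipoxygenase, had -3.09 ± 0.40 and -4.11 ± 0.68 (edgeR adjusted p = 5.3e-05 and 0.002). Slc7a10, an amino acid transporter, had 0 reads in both BATFcKO libraries and was at least 23.3-fold lower there, taking 3 counts over the group as its floor. Its control level in that set was 5.9985 and 5.59 CPM. Plekhg3 fell in both, with 3 reads in BATFcKO against 115 in its control, a ratio of 34.8 (95% exact interval 11.6 to 171). Gcnt1, which builds core 2 O-glycans, and the transcription factor gene Cebpa were also lost in both. Leaving out 1 library at a time, Alox8, Itgae, Klrg1, Pcyt1b, Plekhg3 and Sema6d kept both calls in all 8 fits. Gcnt1 lost its BATFcKO call in some of them (edgeR adjusted p up to 0.13), and so did Cebpa (up to 0.24), Tnfrsf8 (up to 0.16) and Slc7a10 (up to 0.080).

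For 55 of the 147 the difference in size was bounded or called. In 47 the 95% interval of the difference lay within -1 to 1 on the log2 scale, which was the criterion for lost alike. The median changes of these 47 were -0.87 in Foxp3KO and -0.93 in BATFcKO, smaller than that bound. For losses of that size the criterion limits the difference but cannot show that the sizes were alike. The shared losses left unresolved were larger, with medians of -1.6 and -2.5. The chemokine receptor Cxcr3, which guides T cells to type 1 inflammation, was at 48.4 and 60.0 CPM in control and 14.7 and 11.8 CPM in Foxp3KO Treg, and at 51.4 and 51.4 CPM in YFP control and 12.4 and 13.7 CPM in BATFcKO Treg. Its changes were -2.04 ± 0.26 and -1.98 ± 0.30 (edgeR adjusted p = 5.1e-05 and 0.0011), with a difference of -0.06 ± 0.40 (95% interval -0.90 to 0.78). Rgs9, a regulator of G protein signalling, fell by 2.38 and 2.20 on the log2 scale, with a difference of -0.18 ± 0.26 (95% interval -0.72 to 0.36). Cd83 fell by 2.02 and 1.68, and Cd200r1, an inhibitory receptor, by 1.27 and 1.44. Smaller losses that met the criterion were seen in the potassium channel gene Kcna3 (-0.70 ± 0.14 and -0.71 ± 0.15). Others were S100a10, Anxa2, Tnfsf11, which encodes RANKL, and the adhesion receptor Cd44. Cxcr3, Rgs9, Cd83, Cd200r1, Kcna3, S100a10, Anxa2, Tnfsf11 and Cd44 were picked as examples after their values were seen. The count of 47 rests on every library: leaving out 1 at a time gave 4 to 28, lowest without BATFcKO replicate 2.

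In 8 of the 147 the losses were called unequal, and in all 8 the loss was deeper in BATFcKO. Itgb1 (ENSMUSG00000025809.15, chr8:128685654-128733200, plus strand, mm10), the beta 1 integrin shared by many collagen and fibronectin receptors, was the most abundant. It was at 508 and 548 CPM in control and 216 and 177 CPM in Foxp3KO Treg, but at 336 and 417 CPM in YFP control and 52.0 and 51.8 CPM in BATFcKO Treg. Its changes were -1.42 ± 0.13 and -2.86 ± 0.15, a difference of 1.43 ± 0.19 (edgeR adjusted p = 0.00046). S100a4, a calcium-binding protein of motile cells, stood at 62.0 and 78.4 CPM in YFP control against 4.997 and 3.86 CPM in BATFcKO Treg, and at 31.1 and 34.0 CPM in control against 18.5 and 12.3 CPM in Foxp3KO Treg. Its difference was 2.91 ± 0.38 (edgeR adjusted p = 0.00045). Il18rap, the accessory chain of the IL-18 receptor, differed by 2.56 ± 0.31 (edgeR adjusted p = 0.00032). Ttc39c kept 2 reads in BATFcKO Treg, a ratio of 144 (95% exact interval 39.5 to 1192), whereas in Foxp3KO Treg it fell from 32.0 and 43.9 to 12.02 and 8.16 CPM. The remaining 4 were Rora, Plcb4, Cldnd1 and Myo1f. Itgb1, Il18rap and Ttc39c kept the difference call in each of the 8 fits that left out 1 library, and S100a4 kept it too but lost the Foxp3KO call without Foxp3KO replicate 2 (edgeR adjusted p = 0.11). Rora and Plcb4 did not keep the difference call (edgeR adjusted p up to 0.19 and 0.23).

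For the remaining 92 shared losses the sizes were not resolved. Over all 147, the fitted loss was the deeper one in BATFcKO for 108. The change was the more negative one in BATFcKO for 6528 of all 12227 tested genes. It was so for 171 of the 210 genes lower in BATFcKO, but for 185 of the 781 lower in Foxp3KO. The count thus depends on the calls by which genes were selected, and does not show a generally deeper loss in BATFcKO. Tigit, an inhibitory receptor, illustrates the width: 85.7 and 128 CPM fell to 27.4 and 19.2 CPM in Foxp3KO Treg, and 59.0 and 50.2 CPM fell to 1.72 and 2.09 CPM in BATFcKO Treg. The difference of 2.63 ± 0.81 was not called (95% interval 0.93 to 4.33, edgeR adjusted p = 0.17). The checkpoint receptor Pdcd1 fell by 1.59 and 1.503 on the log2 scale, and the chemokine receptor Ccr8 by 1.90 and 1.34, both with intervals reaching past 1 log2 unit. These 3 were picked after their values were seen.

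**Figure D2:**
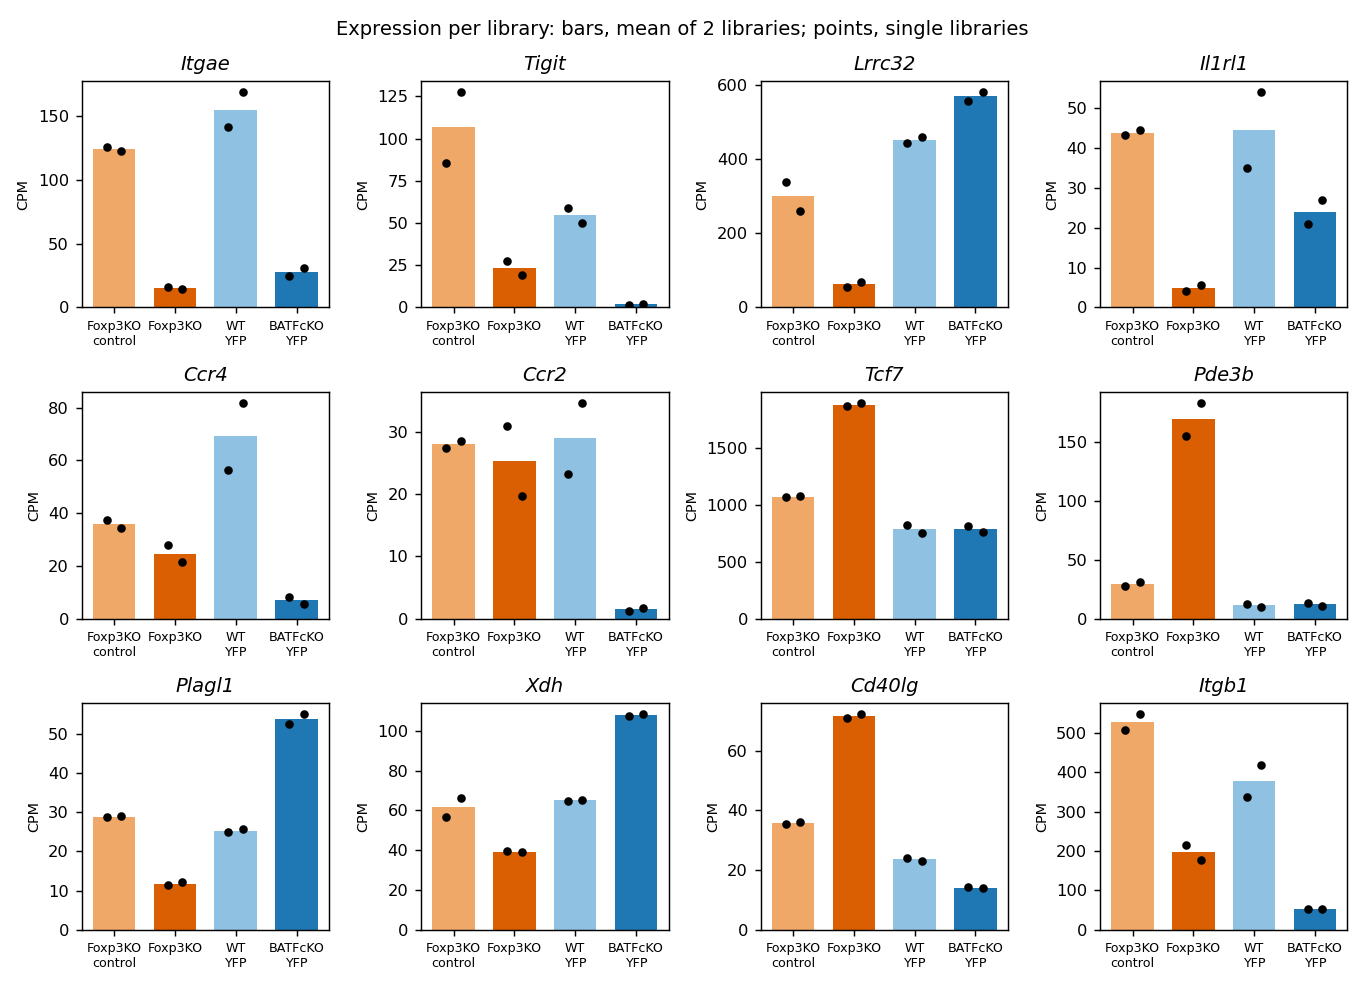
CPM of 12 genes in the 4 groups, on linear axes that start at 0, with 1 point per library and a bar at the mean of the 2 libraries. Itgae is low in both mutants, Lrrc32 is low in Foxp3KO, Ccr4 is lowest in BATFcKO, and Cd40lg is highest in Foxp3KO and lowest in BATFcKO.

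A further 53 genes fell in Foxp3KO, passed no test in BATFcKO, and differed between the losses. Most genes lower in Foxp3KO, 573, had no call in BATFcKO or in the difference, and are placed in no class. Genes of Treg identity stood out by count among the 53, of which 27 (50.9%) were on the Treg-high list. The share was 14.7% of the 573 and 1.86% of all tested genes. Of the 573, 69.6% were on the eTreg-high list, against 23 (43.4%) of the 53. With 1 library left out, the class held 21 to 39 genes, 11 to 17 of them Treg-high, fewest without control replicate 6. Lrrc32 (ENSMUSG00000090958.2, chr7:98489283-98502181, plus strand, mm10) encodes GARP, which presents latent TGF-beta on the Treg surface. It was at 339 and 261 CPM in control and 56.6 and 69.4 CPM in Foxp3KO Treg, but at 444 and 459 CPM in YFP control and 559 and 582 CPM in BATFcKO Treg. Both BATFcKO libraries lay above their controls, without passing the test (log2 change 0.34 ± 0.25, edgeR adjusted p = 0.74). The difference was -2.59 ± 0.36 (edgeR adjusted p = 0.0007).

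The receptors of this class are described first. Il2rb, the beta chain of the IL-2 receptor, was at 882 and 954 CPM in control and 447 and 450 CPM in Foxp3KO Treg, and at 1175 and 1212 CPM in YFP control and 1339 and 1566 CPM in BATFcKO Treg. The difference was -1.32 ± 0.26 (edgeR adjusted p = 0.012). Il2ra, which encodes CD25 and was outside the class, fell in Foxp3KO by 0.94 on the log2 scale and was near 0 in BATFcKO (0.09 ± 0.22), but its difference of -1.03 ± 0.31 was not called (edgeR adjusted p = 0.16). Il1rl1, the IL-33 receptor of tissue Treg, was at 43.1 and 44.3 CPM in control and 4.01 and 5.50 CPM in Foxp3KO Treg. In the YFP set it was at 35.0 and 54.0 CPM in control and 20.8 and 27.0 CPM in BATFcKO Treg, so both mutants lay below their controls and the difference concerned the size (-2.31 ± 0.52, edgeR adjusted p = 0.036). Cxcr5, the receptor that leads follicular T cells to B cell follicles, differed by -1.67 ± 0.32 (edgeR adjusted p = 0.01), and the orphan receptor Gpr83 by -1.60 ± 0.30 (edgeR adjusted p = 0.0074).

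Secreted and enzymatic products followed. Entpd1, the ectonucleotidase CD39, was at 36.4 and 34.7 CPM in control and 15.6 and 13.2 CPM in Foxp3KO Treg, but at 32.7 and 32.3 CPM in YFP control and 32.4 and 34.2 CPM in BATFcKO Treg. Its difference was -1.34 ± 0.25 (edgeR adjusted p = 0.0096). Ebi3, a subunit of IL-27 and IL-35, was at 8.54 and 9.65 CPM in control and 2.13 and 1.12 CPM in Foxp3KO Treg. The difference from its BATFcKO change was -1.68 ± 0.39 (edgeR adjusted p = 0.046). Csf1, the macrophage growth factor, differed by -1.47 ± 0.32 (edgeR adjusted p = 0.028) and Swap70, a signalling adaptor, by -1.10 ± 0.18 (edgeR adjusted p = 0.0031). C1qtnf6 and the membrane protein gene Cdcp1 differed by -2.31 ± 0.24 and -2.92 ± 0.35 (edgeR adjusted p = 8.9e-05 and 0.00032). The B cell receptor component Cd79b belonged here as well, at 12.3 and 13.2 CPM in control, 4.79 and 4.51 CPM in Foxp3KO Treg and 16.3 to 17.6 CPM in the YFP set. C1qtnf6, Cdcp1, Gbp3, Lrrc32, Swap70 and Foxp3 kept the Foxp3KO and difference calls in all 8 fits that left out 1 library. The difference lost its call in at least 1 of those fits for Il2rb (edgeR adjusted p up to 0.090), Entpd1 (0.065), Gpr83 (0.071), Cxcr5 (0.079), Cd79b (0.072), Csf1 (0.15), Il1rl1 (0.20) and Ebi3 (0.24).

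Another 39 genes rose in Foxp3KO, passed no test in BATFcKO, and differed between the losses. Of these, 15 (38.5%) were on the list of genes low in Treg against conventional T cells, against 0.826% of all tested genes, and 13 (33.3%) were on the cTreg-high list, against 3.97%. Of all 320 genes raised in Foxp3KO, 15.6% were on the first list and 31.6% on the second. The cTreg-high share was thus not particular to the 39. Pde3b (ENSMUSG00000030671.9, chr7:114415281-114539251, plus strand, mm10), a cyclic nucleotide phosphodiesterase that Foxp3 is known to repress, was at 27.4 and 30.9 CPM in control and 156 and 183 CPM in Foxp3KO Treg. In the YFP set it was at 12.6 and 10.2 CPM in control and 13.3 and 10.8 CPM in BATFcKO Treg. The difference was 2.47 ± 0.26 (edgeR adjusted p = 8.9e-05). Tcf7, which encodes TCF-1 of naive and memory T cells, rose from 1065 and 1075 to 1866 and 1894 CPM in Foxp3KO Treg and read 818, 755, 812 and 762 CPM across the YFP set. Its difference was 0.81 ± 0.16 (edgeR adjusted p = 0.011). Tgfbr3, a TGF-beta co-receptor, and Vipr1, a neuropeptide receptor, differed by 1.81 ± 0.19 and 1.56 ± 0.28 (edgeR adjusted p = 8.9e-05 and 0.0065). Both were picked after their values were seen. The class held 18 to 28 genes with 1 library left out, fewest without Foxp3KO replicate 1.

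Cpe, Serpinb1a and Gpr25 were low in level, with a called rise in Foxp3KO and both BATFcKO libraries below both of their controls. The rises of Cpe and Serpinb1a were not called in every fit that left out 1 library. Their log2 changes in Foxp3KO ranged there from 1.29 to 1.77 and from 0.71 to 1.29. Nor was the difference of Serpinb1a always called, with values of 2.95 to 4.47. Cpe, a peptide-processing enzyme, was at 3.25 and 2.67 CPM in control and 10.1 and 7.23 CPM in Foxp3KO Treg, and at 3.999 and 4.47 CPM in YFP control and 0.345 and 1.13 CPM in BATFcKO Treg. Its difference of 4.04 ± 0.83 (edgeR adjusted p = 0.017) was lost in 6 of the 8 fits that left out 1 library (edgeR adjusted p up to 0.15). Pde3b and Prr5l kept both calls in all 8. Ggt5, a glutamyl transferase with one of the steepest rises (3.78 and 3.37 to 36.6 and 32.4 CPM in Foxp3KO Treg), did not keep its difference call (edgeR adjusted p up to 0.41), nor did Tcf7 (up to 0.074).

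Only 18 genes fell in BATFcKO, passed no test in Foxp3KO, and differed between the losses. A further 39 fell in BATFcKO with no call in Foxp3KO or in the difference, and are placed in no class. Of the 18, 16 (88.9%) were eTreg-high, against 92.4% of all 210 genes lower in BATFcKO. With 1 library left out the class held 7 to 20 genes, fewest without BATFcKO replicate 2. Its chemokine and homing receptors are described first. Ccr4 (ENSMUSG00000047898.7, chr9:114490316-114504916, minus strand, mm10), which draws Treg to skin and lung, was at 56.4 and 81.8 CPM in YFP control and 8.27 and 5.47 CPM in BATFcKO Treg. In the Foxp3 set it was at 37.5 and 34.3 CPM in control and 27.7 and 21.5 CPM in Foxp3KO Treg. The mutants lay below their controls in both sets, by 3.33 ± 0.34 in BATFcKO (edgeR adjusted p = 1.2e-05) and 0.54 ± 0.26 in Foxp3KO (edgeR adjusted p = 0.26). The difference was 2.79 ± 0.44 (edgeR adjusted p = 0.0018). Ccr2, which binds the monocyte chemokine CCL2, was at 23.3 and 34.7 CPM in YFP control and 1.21 and 1.77 CPM in BATFcKO Treg. In the Foxp3 set its groups overlapped, at 27.4 and 28.6 against 31.0 and 19.7 CPM, and the difference was 4.12 ± 0.84 (edgeR adjusted p = 0.016). Cxcr6 fell from 9.14 and 10.1 to 1.38 and 0.964 CPM in BATFcKO Treg, against 27.5 and 20.9 and then 28.4 and 25.2 CPM in the Foxp3 set (difference 3.18 ± 0.55, edgeR adjusted p = 0.0045). Gpr15, a receptor for homing to the large intestine, kept 3 reads in BATFcKO Treg against 144 in its control, a ratio of 43.5 (95% exact interval 14.6 to 214). In Foxp3KO Treg it was at 5.19 and 4.26 CPM against 9.68 and 9.68 CPM, a fall of 1.03 on the log2 scale that did not pass (edgeR adjusted p = 0.051).

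The rest of the class held signalling molecules and a few markers of activated cells. Il18r1, the IL-18 binding chain, fell from 136 and 191 to 60.7 and 64.1 CPM in BATFcKO Treg and stood at 110 and 113 CPM in control and 182 and 150 CPM in Foxp3KO Treg. Its rise in Foxp3KO was just short of the threshold (0.58 ± 0.18, edgeR adjusted p = 0.054) and was called by DESeq2 (adjusted p = 0.021). The difference was 1.96 ± 0.26 (edgeR adjusted p = 0.0005). Ahr, the aryl hydrocarbon receptor, fell from 35.1 and 37.2 to 14.6 and 16.4 CPM, against a range of 50.2 to 61.8 CPM in the Foxp3 set. Lgals3, which encodes galectin 3, and the protease gene Adam8 differed by 3.07 ± 0.64 and 2.57 ± 0.41 (edgeR adjusted p = 0.02 and 0.0021), the latter picked after its values were seen. The long noncoding RNA Miat had 0 reads in both BATFcKO libraries and was at least 28.4-fold lower, whereas it was at 3.21 and 3.24 CPM in control and 8.40 and 3.04 CPM in Foxp3KO Treg. Ccr4, Il18r1 and Miat kept both calls in all 8 fits that left out 1 library. The difference lost its call in at least 1 of those fits for Cxcr6 (edgeR adjusted p up to 0.067), Ahr (0.085), Ccr2 (0.14), Gpr15 (0.15) and Lgals3 (0.20). The BATFcKO call of Cxcr6, Ahr, Ccr2 and Lgals3 was lost in 1 or 2 of these fits as well (edgeR adjusted p up to 0.060). In the fit of the 8 libraries alone the fall of Miat was not called (edgeR adjusted p = 0.067).

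Promoters were read for the 20 genes chosen by size among those lost in BATFcKO alone or in both. Other members named in the text were not in this set. Of the 20, 16 had a promoter window. The 3 windows that held an AP-1 motif are shown, those of Ccr4, Gpr15 and Tnfrsf8. Ccr4 and Gpr15 are in the class lost in BATFcKO alone, and Tnfrsf8 was lost in both. The windows of the other 13 held none, those of Ccr2, Cxcr6 and Miat among them. Tnfrsf8, which encodes CD30, was at 8.50 and 9.04 CPM in control and 1.21 and 1.504 CPM in Foxp3KO Treg, and at 6.71 and 9.74 CPM in YFP control and 0.517 and 2.09 CPM in BATFcKO Treg. Each sequence is from RefSeq (GRCm38.p6), 250 bases before to 50 after the start of the gene in RefSeq, read on the strand of the gene. The RefSeq starts of Ccr4 and Gpr15 lie inside their GENCODE spans, that of Ccr4 well downstream of the 5′ end given above. Capitals mark a match to TGANTCA, the AP-1 motif, which begins 143, 199 and 132 bases before the start. The windows lie at chr9:114496495-114496794 (minus strand), chr16:58718823-58719122 (minus strand) and chr4:145315115-145315414 (minus strand).
Ccr4: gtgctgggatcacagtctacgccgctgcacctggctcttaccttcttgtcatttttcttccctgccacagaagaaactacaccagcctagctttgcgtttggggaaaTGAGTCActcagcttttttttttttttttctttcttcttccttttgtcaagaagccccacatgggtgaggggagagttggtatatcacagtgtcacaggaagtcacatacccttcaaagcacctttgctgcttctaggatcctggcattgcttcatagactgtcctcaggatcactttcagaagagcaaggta
Gpr15: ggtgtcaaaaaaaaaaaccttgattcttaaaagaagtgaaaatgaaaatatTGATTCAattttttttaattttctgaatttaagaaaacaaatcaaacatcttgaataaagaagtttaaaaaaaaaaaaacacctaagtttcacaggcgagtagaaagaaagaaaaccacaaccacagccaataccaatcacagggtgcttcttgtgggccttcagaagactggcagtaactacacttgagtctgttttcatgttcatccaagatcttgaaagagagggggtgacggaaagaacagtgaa
Tnfrsf8: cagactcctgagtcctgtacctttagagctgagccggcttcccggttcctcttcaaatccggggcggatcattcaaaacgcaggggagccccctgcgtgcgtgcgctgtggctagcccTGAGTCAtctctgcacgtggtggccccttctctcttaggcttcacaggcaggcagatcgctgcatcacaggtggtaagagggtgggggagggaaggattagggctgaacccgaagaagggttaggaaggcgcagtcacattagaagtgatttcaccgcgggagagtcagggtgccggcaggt
Searched on both strands, TGANTCA was in 579 of the 11895 windows of tested genes (4.87%). It was in 5 of 24 windows of the genes that fell in BATFcKO alone (20.8%, the genes Ccr4, Ctla2a, Gpr15 and Sgms1) and in 11 of 149 windows of the genes lost in both (7.38%). It was also in 3 of 15 windows of genes raised in both (20.0%), in 1 of 4 of genes raised in BATFcKO alone, in 2 of 19 of the opposite calls, in 5 of 53 of genes lost in Foxp3KO alone (9.43%) and in 0 of 29 of genes raised in Foxp3KO alone. These counts were not tested, and the genes raised in both had about the same share as those lost in BATFcKO alone. Some genes have several windows, and 16 of the 18 genes lower in BATFcKO alone were matched. The forkhead motif GTAAACA was in 2.598% of windows of tested genes, in 3 of the 24 (Adam8, L3mbtl3 and Lilr4b) and in 4 of the 149. The AP-1 motif with the letters GAAA directly before it, as in joint sites of IRF and AP-1 factors, was searched after the Ccr4 window had been seen. It was in 9 of the 11895 windows (0.076%), Ccr4 among them, and in 0 of the 149. A match is a description of the letters and shows no binding.

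Only 3 genes rose in BATFcKO alone and differed between the losses, and 1 to 5 did with 1 library left out, fewest without WT YFP replicate 1. Gbp2b (ENSMUSG00000040264.10, chr3:142594847-142619179, plus strand, mm10), an interferon-inducible GTPase, was at 15.996 and 20.0 CPM in YFP control and 60.0 and 74.7 CPM in BATFcKO Treg. In the Foxp3 set it ranged from 10.8 to 14.3 CPM, with the groups overlapping. The difference was -1.99 ± 0.32 (edgeR adjusted p = 0.0021) and held in all 8 fits that left out 1 library. Ly6c1 and the focal adhesion gene Tns1 rose by 0.68 ± 0.15 and 0.70 ± 0.15 (edgeR adjusted p = 0.022 and 0.014), and both calls were lost whichever YFP library was left out (edgeR adjusted p up to 0.25 and 0.18). Their differences of -0.91 ± 0.21 and -0.94 ± 0.20 (edgeR adjusted p = 0.038 and 0.026) were called in 0 of the 8 fits that left out 1 library of either set (edgeR adjusted p up to 0.19 and 0.14). Of 11 tested guanylate-binding protein genes, 3 had a called difference. Besides Gbp2b, Gbp3 fell in Foxp3KO and differed by -1.21 ± 0.16 (edgeR adjusted p = 0.00045), and Gbp5 differed by -0.92 ± 0.21 (edgeR adjusted p = 0.036) without a call in either loss. The Gbp5 difference was called in 3 of the 8 fits that left out 1 library (edgeR adjusted p up to 0.23). The other 8 had no called difference, among them Gbp2, which rose in BATFcKO, and Gbp11, which rose in both losses. Gbp genes are close paralogs, between which reads can be shared.

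Opposite calls were rare, 14 genes or 0.115% of those tested. In 8 the gene fell in Foxp3KO and rose in BATFcKO, and in 6 it did the reverse. Leaving out 1 library at a time left 2 to 8 opposite calls, fewest without WT YFP replicate 2. Xdh (ENSMUSG00000024066.9, chr17:73883895-73950196, minus strand, mm10), the xanthine dehydrogenase of purine breakdown, was at 56.9 and 66.1 CPM in control and 39.5 and 39.0 CPM in Foxp3KO Treg, and at 64.7 and 65.5 CPM in YFP control and 108 and 109 CPM in BATFcKO Treg. Its changes of -0.65 ± 0.11 and 0.73 ± 0.11 were called (edgeR adjusted p = 0.00056 and 0.0011), with a difference of -1.38 ± 0.15 (edgeR adjusted p = 0.00015). Xdh was the one named gene of this class whose calls both held in all 8 fits that left out 1 library. Plagl1 (ENSMUSG00000019817.18, chr10:13060504-13131694, plus strand, mm10), a zinc finger transcription factor, went from 28.7 and 28.9 to 11.3 and 12.1 CPM in Foxp3KO Treg and from 24.99 and 25.6 to 52.6 and 55.0 CPM in BATFcKO Treg. Its difference was -2.39 ± 0.34 (edgeR adjusted p = 0.001), and the rise in BATFcKO had an edgeR adjusted p of 0.026.

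Tgm2, a transglutaminase, went from 6.51 and 7.996 to 3.87 and 3.46 CPM in Foxp3KO Treg and from 10.7 and 8.78 to 23.4 and 31.0 CPM in BATFcKO Treg. Transporters and phosphatases completed the first direction: Slc43a1 and Slc22a5, which carry amino acids and carnitine, Ptprs, Ppm1l, and Stra6, the retinol transporter. In the reverse direction, Cd40lg (ENSMUSG00000031132.1, chrX:57212143-57224042, plus strand, mm10), the CD40 ligand by which helper T cells activate B cells, was at 35.3 and 36.0 CPM in control and 70.9 and 72.3 CPM in Foxp3KO Treg. It was at 24.1 and 23.0 CPM in YFP control and 14.3 and 13.98 CPM in BATFcKO Treg, so the groups did not overlap in either set. The changes of 1.005 ± 0.13 and -0.74 ± 0.17 were called (edgeR adjusted p = 7e-05 and 0.024), with a difference of 1.74 ± 0.21 (edgeR adjusted p = 0.00032). Mmp25, a membrane metalloproteinase, rose in Foxp3KO and kept 1 read in BATFcKO Treg against 43 in its control, a ratio of 39.0 (95% exact interval 6.63 to 1575). Parp16, Nebl and Emb made up the rest with the unnamed model 5830411N06Rik. The BATFcKO call of Cd40lg and Plagl1 was lost whichever YFP library was left out (edgeR adjusted p up to 0.20 and 0.19), while their difference calls held in all 8 fits.

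Raised in both were 9 genes (0.0736% of those tested), which were 23.1% of the 39 raised in BATFcKO and 2.81% of the 320 raised in Foxp3KO. The 95% interval of the difference lay within -1 to 1 for all 9, and 7 of them (77.8%) were cTreg-high. That share was 3.97% of all tested genes, 51.3% of the 39 raised in BATFcKO and 31.6% of the 320 raised in Foxp3KO. Their median rises were 0.49 in Foxp3KO and 0.62 in BATFcKO, smaller than that bound, which therefore cannot show that the sizes were alike. With 1 library left out, 1 to 5 genes were raised in both, fewest without WT YFP replicate 2. Igfbp4 (ENSMUSG00000017493.12, chr11:99041244-99054392, plus strand, mm10), a growth factor binding protein of naive T cells, rose from 195 and 196 to 489 and 424 CPM in Foxp3KO Treg. In the YFP set it rose from 288 and 247 to 478 and 520 CPM. The changes were 1.22 ± 0.17 and 0.90 ± 0.17 (edgeR adjusted p = 9.5e-05 and 0.006). Bcl2l11, which encodes the death-promoting protein BIM, rose by 0.62 ± 0.12 and 0.62 ± 0.13 (edgeR adjusted p = 0.0025 and 0.0099). Gbp11 rose by 1.498 ± 0.17 and 1.42 ± 0.24 (edgeR adjusted p = 1.8e-05 and 0.0024) and was the one named member of this group to keep both calls in all 8 fits that left out 1 library. The others were Ddr1, Gramd4, Phyhd1, Dph5, Pecam1 and Cytip.

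**Figure D3:**
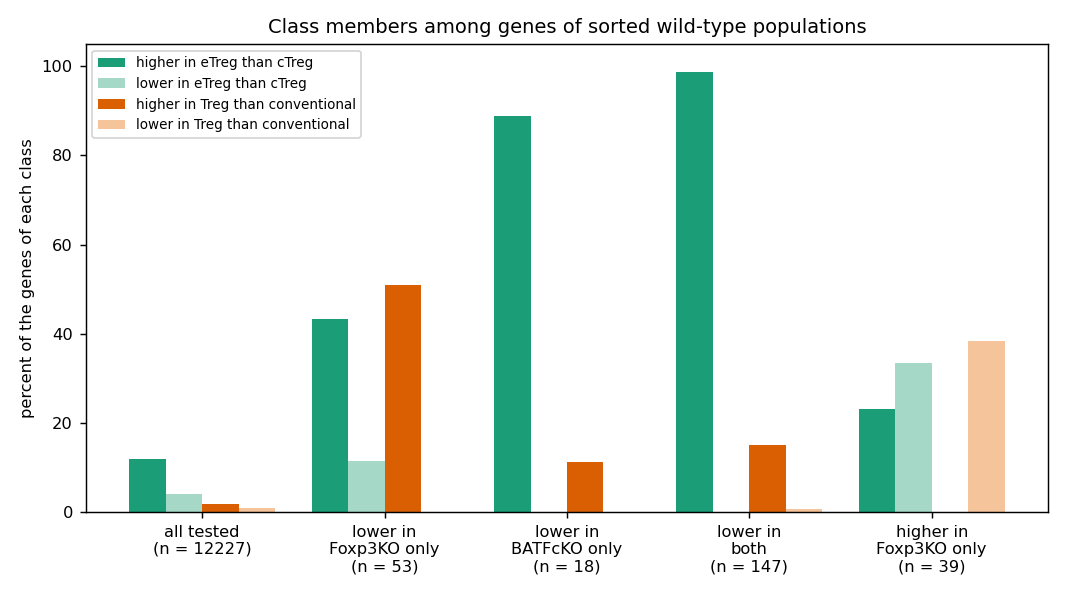
Percent of genes in each class that are on the eTreg-high, cTreg-high, Treg-high and Treg-low lists, which come from sorted wild-type populations, beside the same percent of all tested genes. The genes lost in both are 98.6% eTreg-high, those lost in Foxp3KO alone 50.9% Treg-high, and those raised in Foxp3KO alone 38.5% Treg-low.

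Lists of known genes were counted over every tested member. Over all tested genes 6.39% fell and 2.62% rose in Foxp3KO, 1.72% fell and 0.319% rose in BATFcKO, and 1.14% had a called difference. In the Treg core list of 20 genes, 16 fell in Foxp3KO, the targeted gene Foxp3 among them, and 1, Nrp1, in BATFcKO. The median log2 changes were -1.01 and 0.00, against 0.01 and -0.02 over all tested genes. The difference was called in 6: Foxp3, Il2rb, Lrrc32, Gpr83, Entpd1 and Swap70. The TNF receptor family genes Tnfrsf18 (GITR), Tnfrsf4 (OX40) and Tnfrsf9 (4-1BB) fell in Foxp3KO by 0.91, 1.18 and 1.31 on the log2 scale. None of the 3 passed in BATFcKO, and their differences were not called (edgeR adjusted p = 0.19, 0.14 and 0.27). Of 16 genes of the IL-2 and STAT5 axis, 4 fell in Foxp3KO and 0 fell or rose in BATFcKO, where counts near 0 are also what the shares over all tested genes give for a list of this size.

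In the effector Treg list of 34 genes, 18 fell in each loss, 11 of them in both. The 18 in BATFcKO include the targeted gene Batf. The medians were -0.88 in Foxp3KO and -1.54 in BATFcKO. The difference was called in 8, deeper in BATFcKO for 7 (Ccr2, Ccr4, Il18r1, Il18rap, Itgb1, Lgals3 and S100a4) and in Foxp3KO for 1 (Il1rl1). Among 32 chemokine receptors and integrins, 9 fell and 4 rose in Foxp3KO, whereas 11 fell and 0 rose in BATFcKO. The difference was called in 6, of which Cxcr5 alone was lower in Foxp3KO. Ccr10, a skin-homing receptor, had 0 reads in both BATFcKO libraries and was at least 18.7-fold lower there (edgeR adjusted p = 0.0095). It was at 2.28 and 4.05 CPM in control and 1.38 and 0.672 CPM in Foxp3KO Treg, and the difference was not called (edgeR adjusted p = 0.22). Of 22 naive and central T cell genes, 10 rose in Foxp3KO, among them Tcf7, Lef1, Satb1, Bach2 and S1pr1, and 2 in BATFcKO, Igfbp4 and Ly6c1.

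Of 10 tested Th17 genes, 6 rose and 1 fell in Foxp3KO (median 1.80), and 0 rose and 2 fell in BATFcKO (median -1.09, or -1.17 with genes at 0 reads set to their bound). Il17a, the Th17 cytokine, was at 0.285 and 0.236 CPM in control and 19.2 and 10.53 CPM in Foxp3KO Treg, a rise of 5.78 ± 0.55 (edgeR adjusted p = 2e-05). All 4 YFP libraries had 0 Il17a reads, where a floor of 3 counts corresponds to 0.428 to 0.517 CPM. Il17f rose from 0.244 and 0.202 to 5.15 and 4.22 CPM in Foxp3KO Treg, and the receptor genes Il23r, Il1r1 and Il17re rose with it. None of these 5 was called in BATFcKO or in the difference, and a fall of Il17a or Il17f was not detectable at the depth of the YFP libraries. Rora and Ahr, of the same list, had called differences, and Rora itself fell in both losses. Of the 20 cell cycle genes, 7 fell in Foxp3KO (median -0.96) and 0 in BATFcKO (median -0.01), against 6.39% and 1.72% of all tested genes. No difference was called in this list, against 1.14% of all tested genes, so the 0 in BATFcKO and in the difference are near the background. The 16 dissociation stress genes had 0 calls in either loss, with medians of -0.05 in Foxp3KO and 0.45 in BATFcKO.

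The partition was then read in a second pair of mutants whose libraries are in neither contrast of the first. They did enter the fit of all 26 libraries, and so had a part in the filter and the estimate of spread behind the 139 calls. In the fit of the 8 libraries alone, which leaves them out, 134 of the 139 were called. Foxp3R397W Treg, CD4+hCD2+GFP- cells of Foxp3R397W-IRES-hCD2/Foxp3-IRES-GFP mice, were set against controls of their own with the wild-type hCD2 allele. Germline BATFKO Treg, CD4+hCD2+ cells of Foxp3-IRES-hCD2 mice that were Batf-/- in all cells, were set against Foxp3-IRES-hCD2 WT Treg. The same difference was called for 385 of 12227 genes (3.15%). Of the 139 genes called in the first pair, 136 had the same sign in the second and 99 were called with that sign, against 7916 genes with the same sign and 370 (3.03%) called with that sign among all 12227. Leaving out 1 of the 8 libraries of the first pair at a time gave between 58 of 59 called differences (without BATFcKO replicate 2) and 92 of 94 (without Foxp3KO replicate 2) with the same sign. Replicates of the germline BATFKO and WT Treg differed by 30.3 and 23.0 times the counting noise, far more than those of the other groups here, so p-values from them may be too small.

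By class, of the 53 genes lost in Foxp3KO alone, 51 had the same sign of difference and 39 were called. All 39 genes raised in Foxp3KO alone had the same sign and 29 were called. Of the 18 lost in BATFcKO alone, 17 had the same sign and 10 were called, and of the 14 opposite calls, 14 and 13. Ccr4 was near 0 in Foxp3R397W (0.07) and at -3.69 in BATFKO Treg, and Lrrc32 was at -2.07 and -0.04. Cd40lg had 1.09 and -1.03, and Xdh -0.46 and 1.27. The sign differed for Ccl5, Cerk and Prdm16. Ccl5, a T cell chemokine that fell in BATFcKO alone, fell in Foxp3R397W by 4.01 on the log2 scale, with a second difference of -2.07 ± 0.70 (edgeR adjusted p = 0.14). Stra6, opposite in the first pair, was at -1.52 in Foxp3R397W and -0.97 in BATFKO Treg.

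Of the 147 shared losses, 145 were on the lower side in Foxp3R397W and 143 in germline BATFKO. Of all 12227 tested genes, 6210 and 6216 were on the lower side. The median log2 changes of the 147 were -1.09 in Foxp3R397W and -1.09 in germline BATFKO. In Foxp3R397W 90 of them were called lower, against 3.94% of all tested genes, and in germline BATFKO 69, against 1.64%. In both, 46 were called lower, against 72 of all 12227 tested genes. Itgae fell by 3.28 and 2.94 on the log2 scale, with a second difference of -0.34 ± 0.29 (edgeR adjusted p = 0.71). Klrg1 was not among the 69 called lower in germline BATFKO. It was at 24.5 ± 3.08 CPM (SD, n = 2) in control and 0.0799 ± 0.113 in Foxp3R397W Treg, but at 17.2 ± 2.17 in WT and 10.001 ± 8.72 in germline BATFKO Treg, whose libraries were far apart. The germline fall was not called (edgeR adjusted p = 0.55), and a direct test of BATFcKO against germline BATFKO effects, added after these values were seen, was not called for Klrg1 either (edgeR adjusted p = 0.16).

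**Figure D4:**
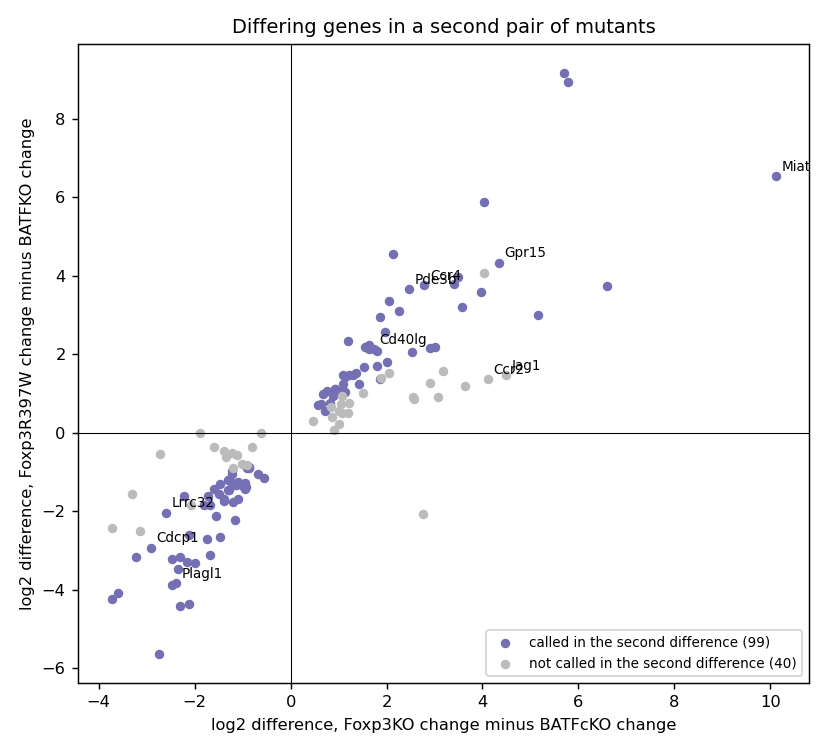
Difference between the losses in the first pair (horizontal axis, Foxp3KO change minus BATFcKO change, log2) against the same difference in the second pair (vertical axis, Foxp3R397W change minus germline BATFKO change, log2) for the 139 genes called in the first. Of these, 136 lie in the quadrants of equal sign.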

How the data were processed

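Whole-number read counts per gene and library were used as deposited. The authors aligned the reads to mm10 with STAR 2.6.1c, per the submitters' processing notes. The counting tool, its strand setting and the gene annotation are not given in the sources used here. The labels name 2 library kits without saying which library used which. The table had 24411 genes and 26 mapped library columns, and 4 further columns were not used. Library totals are given in the report.

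Low genes were removed with filterByExpr (12184 genes), which left 12227, and the counts were scaled by TMM. One edgeR 4.0.16 quasi-likelihood model (R 4.3.3, limma 3.58.1) was fitted to all 26 libraries in 13 groups, with 13 residual degrees of freedom. The contrasts were Foxp3KO against control, BATFcKO against WT YFP, and the first minus the second. P-values were adjusted by Benjamini-Hochberg over all tested genes, with a threshold of 0.05. Standard errors are the log2 change divided by the root of the F statistic. Ratios of counts with 1 to 3 reads in a group have exact 95% intervals, which cover counting error only, and a group at 0 was set to a floor of 3 counts. The steps were tested on simulated data.

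Genes were classed by which contrasts called them. Named were the 8 largest differences in each of the classes changed in 1 loss, the 12 largest opposite or shared losses, the 6 largest shared rises, and up to 4 genes per list. Genes chosen by size had a highest group mean of 5 CPM or more, and groups that did not overlap where a change was called. Foxp3, Batf and the genes taken from lists did not have to meet this. Members of a list were also named where a sentence is about that list, and genes outside the rule are marked as such or complete a class. The comparison and its 21 gene lists were chosen with earlier results of these data known. The 4 lists from sorted populations hold genes called with at least a 2-fold change. Gene spans are from GENCODE M21 (mm10), and 11784 of 12227 genes matched.

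The alternatives were RLE scaling, no expression filter, a fit of the 8 libraries alone, a replicate block, thinning of the Foxp3 set, DESeq2 1.42.0, and leaving out each library.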

Additional observations from a re-analysis of the deposited data

Results flagged for a closer look

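The change of Foxp3 RNA differed between the Foxp3 mutants, each against its own controls. It was -1.60 ± 0.15 in Foxp3KO and -0.25 ± 0.15 in Foxp3R397W, where no fall was called (edgeR adjusted p = 0.48). The log2 change in Foxp3KO minus that in Foxp3R397W was -1.36 ± 0.21 (SE, edgeR adjusted p = 0.023). The chemokine gene Ccl5 differed between the mutants as well, by 3.82 ± 0.56 (edgeR adjusted p = 0.023). It fell in Foxp3R397W (-4.01 ± 0.49, edgeR adjusted p = 4.9e-05), and its change of -0.19 ± 0.23 in Foxp3KO was not called (edgeR adjusted p = 0.75). These were the 2 genes called in that comparison over all 12227 (0.0164%). The comparison was added after the values had been seen.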

How the results depend on the processing

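Of 384 fitted changes of named genes, 40 changed sign under at least 1 alternative. None of these 40 was called in the main result or, with the other sign, under the alternative. Counts are given in the order Foxp3KO calls, BATFcKO calls, difference calls, lost in both, raised in both and opposite (1101, 249, 139, 147, 9 and 14). A fit of the 8 libraries alone gave 2326, 503, 390, 274, 43 and 32. DESeq2 gave 255 differences, 21 raised in both and 22 opposite. Thinning the Foxp3 set gave 633 Foxp3KO calls. The replicate block, for the YFP libraries that share replicate numbers, gave 1120, 245, 132, 140, 9 and 14. Same-numbered YFP libraries deviated together with r of 0.24, which with 2 pairs shows only a shared number, and the Foxp3 set shares none. Leaving out 1 library at a time gave 413 to 1071, 70 to 228, 59 to 94, 46 to 125, 1 to 5 and 2 to 8. These fits leave an arm with 1 sample, assumed to vary like the other groups. Of the 139 differences, 134 were also called in the fit of 8 libraries, 138 by DESeq2 and 95 after thinning. The YFP libraries hold fewer counts, so low genes with 3 or fewer reads there are known only as ratios or bounds. The causes of these shifts were not tested, apart from the fewer samples or counts that the alternatives themselves set.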
